A study of Mus musculus with 2 samples.

Results

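Immediate early genes are transcribed within minutes of a growth factor signal, a mechanical stimulus or stress, without new protein synthesis. Several of them encode AP-1, a DNA-binding dimer of a Jun protein (Jun, Junb, Jund) with a Fos protein (Fos, Fosb), an ATF protein such as Atf3, or another Jun. Egr1 is a zinc-finger factor and Ier2 a small nuclear protein of the same early response. Cited2 belongs to neither family: it is a co-regulator that binds the coactivators CBP and p300, limits hypoxia-inducible factor, helps AP-2 factors, and is needed for heart, neural tube and lens development. Jund is the least inducible Jun gene and is transcribed in most resting cells. Tissue dissociation is also known to induce many of these genes.

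The 9 genes Jun, Junb, Jund, Fos, Fosb, Egr1, Ier2, Atf3 and Cited2, of 27998 genes in the files, were followed in the developing mouse eye. They were chosen by name because Jund had already been seen to differ between the libraries in every cell class. The Jund difference is therefore a description, and the question was whether the other 8 genes moved with it. Earlier results of these data were known when the 9 were chosen, so a gene that moved with Jund is also only described. The samples were the ocular areas, left and right together, of 1 wild-type and 1 Mab21l1-null C57BL/6J embryo at the 26-somite stage (E9.25). Mab21l1 is required for lens placode formation. Both were dissociated with 0.05% trypsin for 3 min at 37 °C and profiled by 10x Chromium 3′ single-cell RNA-seq. With 1 library of 1 embryo per genotype there was no replicate, and a difference between genotypes cannot be told apart from one between embryos or preparations. No test was made. Values are sums of unique molecular identifiers (UMIs), given as CPM, the count scaled to the total UMIs of the cells compared. Their exact 95% intervals, Poisson for levels and conditional binomial for ratios, cover counting error only.

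After filtering, the library labelled WT held 1680 cells with a median of 21037 UMIs, and the library labelled KO held 2404 cells with a median of 18135 UMIs. The 2 libraries shared 15 cell barcode sequences. Mab21l1 itself had 849 UMIs (20.3 CPM) in the library labelled WT and 1706 (32.5 CPM) in the library labelled KO. In lens placode-like cells its order was the opposite, 132.5 against 68.6 CPM. Whether the 3′ end that is counted lies in the removed part of the gene is not given in the sources used here, so these counts check neither label, and the libraries are called by their labels throughout. Cells were assigned to 7 classes by marker genes, written below as "-like", and 1380 cells (33.8%) met no gate. Of the 2704 gated cells, 596 lay within 0.25 of the margin. No class had a marker of another class among its 10 leading genes by fold. The gate itself makes that likely, so it does not check the classes. In graph clusters, described below, 599 optic vesicle-like cells lay in clusters named optic vesicle and 168 in clusters named neural ectoderm. No other class had as many cells in clusters named for another class.

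Promoters of immediate early genes are known for sites that respond to signals, such as CREs and serum response elements. RefSeq promoters (GRCm38.p6) were held for 7 of the 9 genes, not for Egr1 or Ier2. The 250 bases before the RefSeq start are shown for 5 genes, 5′ to 3′ on the gene's strand. They are Jun, Fos and Atf3, known as signal-induced, and Jund and Cited2, whose levels differed most steadily between the libraries. Capitals mark the cAMP response element (CRE) half-site TGACGT, read on either strand, or the longer CRE-like form TGANNTCA.
Jun: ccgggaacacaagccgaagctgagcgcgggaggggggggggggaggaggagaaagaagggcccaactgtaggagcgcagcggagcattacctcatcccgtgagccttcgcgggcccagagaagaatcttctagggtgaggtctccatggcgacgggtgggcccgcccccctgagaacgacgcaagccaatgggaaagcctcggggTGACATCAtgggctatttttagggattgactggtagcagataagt
Fos: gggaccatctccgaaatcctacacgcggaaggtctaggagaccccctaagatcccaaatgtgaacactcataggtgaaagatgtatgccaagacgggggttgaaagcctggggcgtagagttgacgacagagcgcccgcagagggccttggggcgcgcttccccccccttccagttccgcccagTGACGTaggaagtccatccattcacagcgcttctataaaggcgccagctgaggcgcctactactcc
Atf3: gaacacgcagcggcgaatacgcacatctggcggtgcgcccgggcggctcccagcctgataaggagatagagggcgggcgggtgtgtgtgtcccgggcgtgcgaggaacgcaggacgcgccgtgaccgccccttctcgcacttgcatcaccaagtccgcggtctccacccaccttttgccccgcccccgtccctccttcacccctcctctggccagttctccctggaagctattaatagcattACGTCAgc
Jund: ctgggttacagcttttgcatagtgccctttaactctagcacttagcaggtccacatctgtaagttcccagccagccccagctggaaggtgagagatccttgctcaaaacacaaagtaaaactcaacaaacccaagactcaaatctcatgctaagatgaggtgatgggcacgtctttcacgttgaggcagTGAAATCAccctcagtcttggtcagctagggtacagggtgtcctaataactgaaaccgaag
Cited2: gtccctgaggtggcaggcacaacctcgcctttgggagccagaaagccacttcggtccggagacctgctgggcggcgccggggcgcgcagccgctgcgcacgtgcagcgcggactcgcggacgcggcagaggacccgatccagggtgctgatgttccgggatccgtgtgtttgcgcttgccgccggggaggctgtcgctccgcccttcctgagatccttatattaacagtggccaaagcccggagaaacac
The CRE-like form in Jun begins 45 bases before the start, the half-site in Fos 66 bases and that in Atf3 8 bases before it. Such elements are known to bind CREB and ATF dimers, and the one in Jun to bind Jun with Atf2. Jund held a CRE-like form 61 bases before its RefSeq start. Cited2 held neither form, and in the promoters not shown Junb and Fosb held neither. Within these 250 bases neither the consensus AP-1 site TGANTCA nor a CArG box, the serum response element core, was matched in any of the 7. Sequence farther upstream was not searched, so these genes may hold such sites outside the window. Among 27025 RefSeq promoters cut to the same length, 6.56% held TGACGT, 12% TGANNTCA, 6.87% TGANTCA and 1.4% a CArG box. The GC box GGGCGG, found in 32.9% of promoters, occurred 5 times in Atf3, 3 times in Fosb, 2 times in Cited2 and 1 time each in Jun and Fos. A match is a run of letters in a window and not a measured site. Jun lies at chr4:95049034-95052222 and Jund at chr8:70698949-70700616 (GRCm38, GENCODE M21), both single-exon genes. Fos lies at chr12:85473890-85477273, Atf3 at chr1:191170296-191218039 and Cited2 at chr10:17723218-17725674. The RefSeq start of Jund lies upstream of the GENCODE start, so its window, chr8:70697489-70697738, is not directly before the annotated exon. The Atf3 window, chr1:191183334-191183583, lies inside the GENCODE span of that gene. Windows for the others were chr4:95052223-95052472 for Jun, chr12:85473640-85473889 for Fos and chr10:17722978-17723227 for Cited2.

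Over all cells the 9 genes did not move alike. Jund was counted 6315 times in the library labelled WT and 5147 times in the larger library labelled KO, or 150.8 CPM [147.1, 154.6] against 98.2 [95.5, 100.9], a ratio of 0.651 [0.627, 0.676]. Cited2 was lower by a like factor, with 2924 UMIs (69.8 CPM [67.3, 72.4]) against 2294 (43.8 CPM [42.0, 45.6]) and a ratio of 0.627 [0.593, 0.662]. Of the 9 genes these 2 were at least 1.5-fold lower, and 3.31% of the 13946 genes with at least 30 UMIs were lower by that much. Low-count genes make up most of that share. Among the 7376 genes with at least 1000 UMIs, 0.461% were at least 1.5-fold lower (34 genes) and 0.0813% at least 1.5-fold higher. Cited2 ranked 22 and Jund 25 from the lowest ratio in that set.

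Jun, the prototype partner of Fos, differed little over all cells. It had 1970 UMIs (47.0 CPM [45.0, 49.2]) in the library labelled WT and 2461 (46.9 CPM [45.1, 48.8]) in the library labelled KO, a ratio of 0.998 [0.940, 1.06]. Ier2 was slightly higher in the library labelled KO, at 69.4 CPM (3640 UMIs) against 62.3 CPM (2610 UMIs), a ratio of 1.11 [1.06, 1.17]. The intervals of these ratios do not reach those of Jund and Cited2. Junb had a ratio of 1.18 [0.982, 1.42] from 199 and 294 UMIs and Egr1 one of 1.09 [0.803, 1.47] from 78 and 106 UMIs, both of which hold 1.

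The genes most inducible by a signal were rare in both libraries. Fos had 24 UMIs against 54 (0.573 and 1.03 CPM), a ratio of 1.80 [1.09, 3.04], and Fosb 6 UMIs against 43 (0.143 and 0.820 CPM), a ratio of 5.72 [2.43, 16.5]. Atf3 had 72 against 122 UMIs (1.72 and 2.33 CPM), a ratio of 1.35 [1.003, 1.837]. After thinning every cell to 10000 UMIs, by 1 random draw, the Fos ratio was 4.18, from only 4 and 24 UMIs. That of Atf3 turned to 0.899, from 38 and 49 UMIs. Fos and Fosb were past the 1.5-fold limit upwards, as were 1.93% of the 13946 genes. The 43 Fosb UMIs came from 39 cells, with at most 2 in a cell, and the 6 from 6 cells. In sum 3 ratios lay below 1 (Jund, Cited2 and, at 0.998, Jun) and 6 above.

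**Figure D1:**
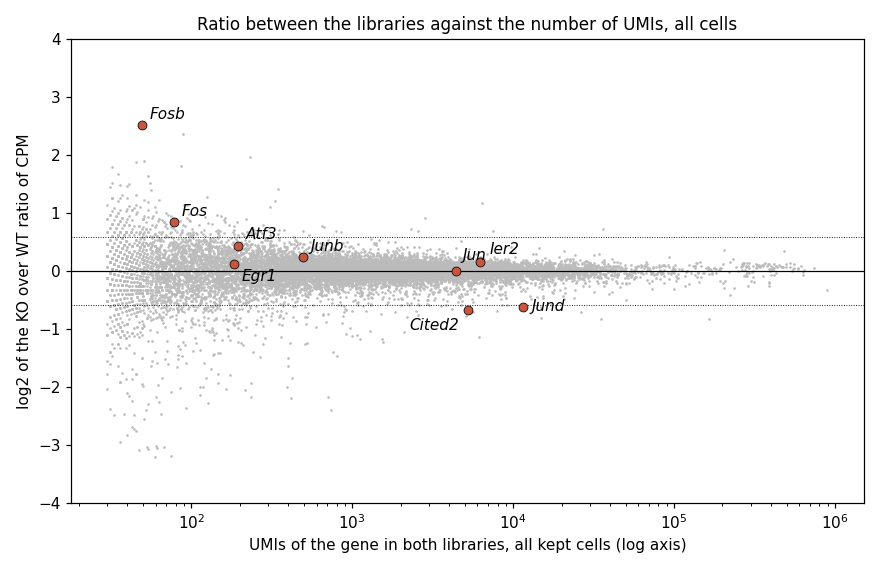
The horizontal axis gives each gene's UMIs in both libraries (log axis) and the vertical axis the log2 of the KO over WT ratio of CPM over all kept cells. Grey points are all other genes with at least 30 UMIs, red points are the 9 genes and dotted lines mark 1.5-fold. Jund and Cited2 sit below the dense band of well-counted genes, at 0.651 and 0.627, Jun and Ier2 lie within it, and Fos and Fosb lie above it among low-count genes. Another 7 genes lie beyond the axis limits.

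Jund was lower in the library labelled KO in each of the 7 classes, and its share of all counts differed widely between classes. In mesenchyme-like cells, where it was highest in both libraries, it stood at 223.8 CPM [213.9, 234.2] against 128.2 [121.3, 135.4], a ratio of 0.573 [0.533, 0.615]. Ectoderm-like cells, the class that holds the lens placode, had 176.4 CPM (269 UMIs) against 86.9 (100 UMIs), a ratio of 0.493 [0.388, 0.622]. That was the lowest of the 7, but its interval overlapped that of mesenchyme-like cells. Optic vesicle-like cells had 150.8 against 104.8 CPM and a ratio of 0.695 [0.646, 0.748]. The intervals of the 2 libraries' levels did not overlap in any of these 3 classes. Neural ectoderm-like cells gave 0.682 [0.586, 0.794], endothelium-like cells 0.622 [0.518, 0.745] and neural crest-like cells 0.657 [0.491, 0.876]. Erythrocyte-like cells had the lowest level, 27.7 against 20.9 CPM from 38 and 40 UMIs, and their ratio of 0.755 [0.472, 1.21] held 1. Within the library labelled WT, mesenchyme-like cells stood apart at the top and erythrocyte-like cells at the bottom. Each pair of neighbours in the order between them (ectoderm, optic vesicle, neural crest, endothelium and neural ectoderm) had overlapping intervals.

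Cited2 had another distribution over the classes but was also lower in 7 of 7. It was highest in neural crest-like cells (138.3 and 117.1 CPM), erythrocyte-like cells (132.1 and 70.1 CPM) and ectoderm-like cells (120.7 and 62.6 CPM), and lowest in endothelium-like cells (16.3 and 10.2 CPM). Its ratio was 0.519 [0.389, 0.685] in ectoderm-like, 0.573 [0.517, 0.636] in optic vesicle-like, 0.531 [0.421, 0.667] in erythrocyte-like and 0.796 [0.683, 0.929] in mesenchyme-like cells. In these 4 classes the interval excluded 1. It held 1 in neural crest-like cells at 0.847 [0.643, 1.11], in neural ectoderm-like cells at 0.802 [0.571, 1.12] and in endothelium-like cells at 0.625 [0.360, 1.08]. Both genes had their lowest ratio in ectoderm-like cells, but for each gene that interval overlapped those of other classes. After thinning to 10000 UMIs the Cited2 ratio was 0.558 in optic vesicle-like and 0.587 in ectoderm-like cells, so its order was not stable. Jund had the lower ratio of the pair in mesenchyme-like cells and Cited2 in optic vesicle-like cells, and in both classes the intervals of the 2 genes did not overlap. A ratio below 1 in all 7 classes was found for 4.32% of the 4142 genes with at least 30 UMIs in each class, and one above 1 in all 7 for 4.49%. Jund chose this list by that very property, and Cited2 was listed with earlier results of these data known. Nothing is read from the place of either in that share.

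**Figure D2:**
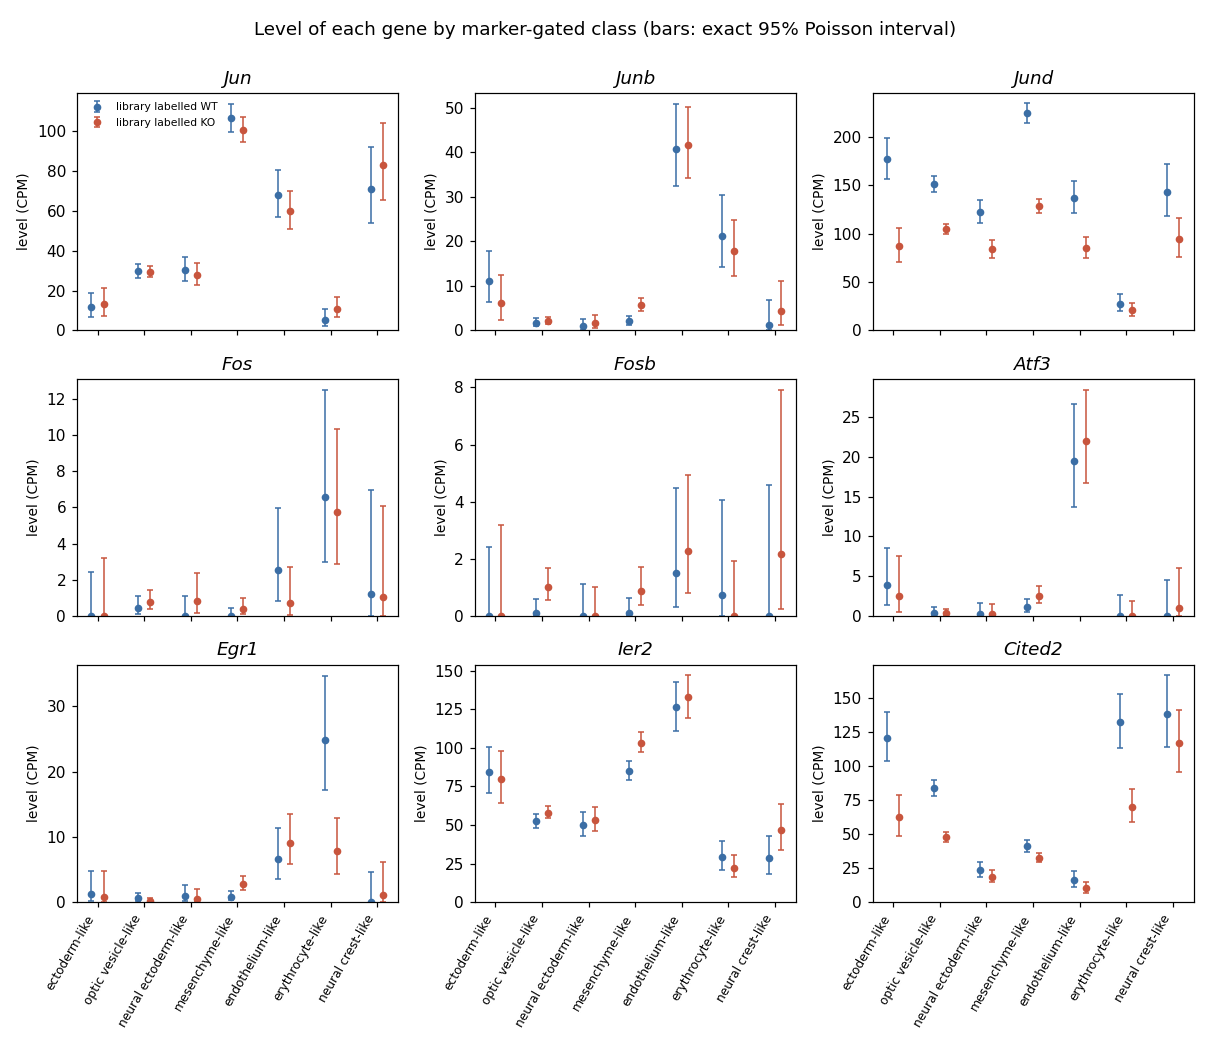
Each panel gives the level of 1 gene in CPM (vertical axis, from 0) in the 7 marker-gated classes, with blue for the library labelled WT, red for the library labelled KO and bars for the exact 95% Poisson interval. For Jund and Cited2 every red point lies below the blue one, with Jund in mesenchyme-like cells at 223.8 and 128.2 CPM. For Jun the red and blue bars overlap in each class, and for Ier2 they lie apart in mesenchyme-like cells (85.2 and 103.4 CPM). Fos, Fosb, Atf3 and Egr1 lie at or below 2.80 CPM in most classes of each library.

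Inside the ectoderm-like class, cells were divided by the sign of their lens placode score less their surface ectoderm score, the former from Pax6, Six3, Sox2, Foxe3 and Prox1. Lens placode-like cells (33 and 24 cells) had Jund at 193.7 against 86.2 CPM, a ratio of 0.445 [0.320, 0.611], and Cited2 at 128.7 against 62.3 CPM, a ratio of 0.484 [0.325, 0.706]. Surface ectoderm-like cells (38 and 32 cells) had ratios of 0.555 [0.386, 0.787] for Jund and 0.562 [0.363, 0.850] for Cited2. The intervals of the subclasses overlap, so neither gene was seen to differ more in the placode than in the neighbouring ectoderm. Ier2 had ratios of 0.716 [0.473, 1.07] and 1.25 [0.841, 1.84], both holding 1. No UMI of Fos or Fosb was counted in any ectoderm-like cell of either library, which allows up to 1.97 CPM in the library labelled WT and 2.61 CPM in the library labelled KO at the 3-count limit.

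The other Jun genes did not share the Jund pattern. Jun was concentrated in mesenchyme-like cells, at 106.6 CPM [99.7, 113.7] against 100.7 [94.6, 107.1], followed by neural crest-like cells (71.0 and 83.2 CPM) and endothelium-like cells (67.9 and 60.1 CPM). Optic vesicle-like cells held 29.6 and 29.5 CPM, and ectoderm-like cells 11.8 and 13.04 CPM. Over the 6 classes with at least 30 UMIs its ratio ran from 0.885 in endothelium-like to 1.17 in neural crest-like cells, and each interval held 1. None of the 6 was past the 1.5-fold limit. Optic vesicle- and neural ectoderm-like cells, whose intervals overlap, changed places in the order of classes between the libraries.

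Junb, a Jun protein that often restrains Jun, was highest of the 7 classes in endothelium-like cells. Its level there was 40.8 CPM [32.4, 50.8] against 41.6 [34.2, 50.1], a ratio of 1.02 [0.756, 1.38]. Macrophage-like cells held 18.7 and 47.8 CPM, from 12 UMIs in each library. Erythrocyte-like cells followed at 21.2 and 17.8 CPM, and neural ectoderm-like cells were lowest at 0.907 and 1.64 CPM. The exception was the mesenchyme-like class, in which 18 UMIs (2.12 CPM) stood against 57 UMIs (5.70 CPM), a ratio of 2.68 [1.56, 4.85]. Of those 57 UMIs, 10 lay in 1 cell, against at most 2 in a cell of the library labelled WT. Exons of Junb overlap those of Prdx2, of Jun those of Junos and of Jund those of Gm11175, each on the opposite strand. Whether the counting used strand is not given in the sources used here.

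Among the Fos genes no class reached 30 UMIs. Of the 7 classes Fos was highest in erythrocyte-like cells, at 6.57 CPM from 9 UMIs against 5.76 CPM from 11. In mesenchyme-like cells it had 0 UMIs among 433 cells and 4 among 617. Fosb had 1 UMI against 9 in mesenchyme-like cells, 1 against 15 in optic vesicle-like cells and 3 against 6 in endothelium-like cells. These counts are too small for a ratio by class to be read. In the 20 and 11 macrophage-like cells, which fall outside the 7 classes, Fos had 5 and 10 UMIs (7.80 and 39.8 CPM), above its level in each of the 7 classes, and Ier2 a level of 56.1 against 163.3 CPM. The Fos interval overlapped the erythrocyte-like one in the library labelled WT ([2.53, 18.2] against [3.00, 12.5]). In the library labelled KO it did not ([19.1, 73.2] against [2.87, 10.3]).

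Atf3, an ATF-family gene induced by stress, was also highest of the 7 classes in endothelium-like cells. It stood at 19.4 CPM [13.7, 26.6] against 21.9 [16.7, 28.3] there, and at or below 3.94 CPM in each of the other 6 classes of either library. Its ratio in endothelium-like cells was 1.13 [0.738, 1.75], and in mesenchyme-like cells 2.204 [1.03, 5.12] from 10 and 26 UMIs, which became 0.983 once cells were thinned to 10000 UMIs. Egr1 in the library labelled WT was highest in erythrocyte-like cells, with 34 UMIs (24.8 CPM [17.2, 34.7]), against 15 UMIs (7.85 CPM [4.39, 12.95]) in the library labelled KO, a ratio of 0.316 [0.160, 0.597]. Of those 34 UMIs, 10 lay in 1 cell. In mesenchyme-like cells Egr1 went the other way, from 7 UMIs (0.826 CPM) to 28 UMIs (2.80 CPM), a ratio of 3.39 [1.45, 9.19], and 9 of the 28 lay in 1 cell.

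Ier2 (chr8:84661331-84662852) had its highest level of the 7 classes in endothelium-like cells, at 126.1 CPM [110.9, 142.8] against 132.7 [119.1, 147.3]. Its ratio there was 1.05 [0.891, 1.24]. Mesenchyme-like cells had 85.2 against 103.4 CPM, a ratio of 1.21 [1.10, 1.34], the one class of the 7 whose interval excluded 1. In neural crest-like cells the ratio was 1.64 [0.968, 2.85] from 23 and 43 UMIs.

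The genes past the 1.5-fold limit were counted by class beside the share of all genes past it. Jund, which chose the list, is among those lower in 6 of the 9 classes and subclasses, and nothing is read from its part in these counts. The other genes were also listed with earlier results of these data known. In ectoderm-like cells 2 of 4 counted genes, Jund and Cited2, were lower (7.44% of all genes) and 0 higher (5.58%). In optic vesicle-like cells 1 of 5, Cited2, was lower (2.48%) and 0 higher (2.68%), and in neural ectoderm-like cells 0 of 4 in either direction (3.27% and 4.22%). In mesenchyme-like cells 1 of 7, Jund, was lower (2.9%) and 3 higher (2.71%), namely Junb, Egr1 and Atf3. Mesenchyme-like cells thus had Jund past the limit downwards and 3 sparse genes past it upwards. In endothelium-like cells 2 of 7, Jund and Cited2, were lower (5.63%) and 0 higher (4.89%). Both dropped inside the limit, at 0.682 and 0.726, without the cells of highest Scrublet doublet score, which left 1 gene higher, and at 0.716 and 0.815 after thinning. In erythrocyte-like cells 2 of 5, Egr1 and Cited2, were lower (6.19%) and 0 higher (4.52%). In neural crest-like cells 1 of 4, Jund, was lower (4.66%) and 1, Ier2, higher, as were 546 of all 5904 genes. Of the ectoderm-like subclasses, lens placode-like cells had 2 of 3, Jund and Cited2, lower (8.89%) and 0 higher (7.18%), and surface ectoderm-like cells 2 of 3, the same pair, lower (7.71%) and 0 higher (6.5%). The 20 and 11 macrophage-like cells had 0 of 4 lower (11.7%) and 1, Ier2, higher (10.1%), and the cells in no gate had 1 of 7, Cited2, lower (2.02%) and 2, Egr1 and Atf3, higher (3.23%). A gene enters these counts through its total over both libraries, and those with fewer than 30 UMIs in a class are left out.

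**Figure D3:**
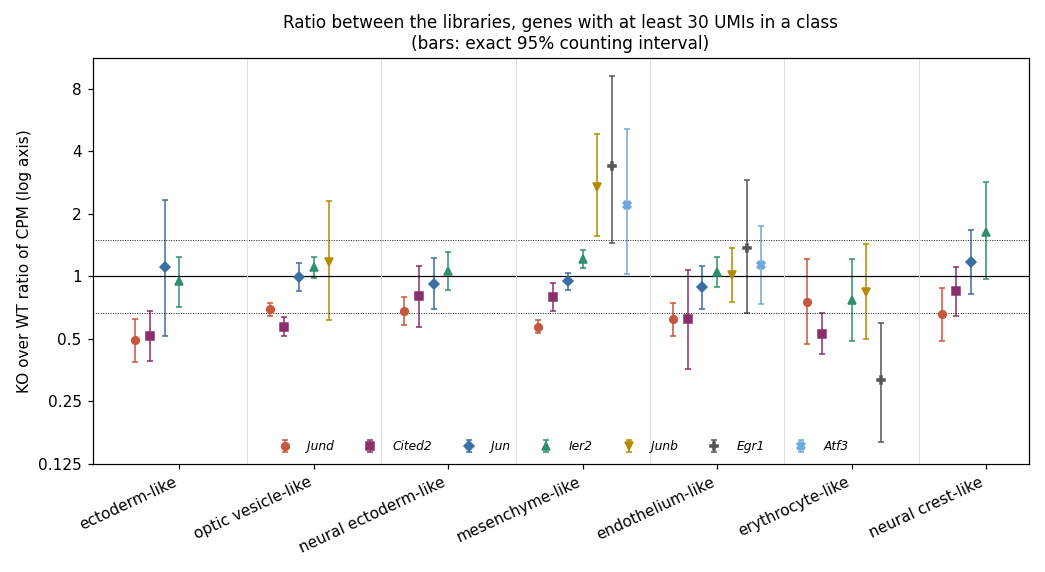
The vertical axis gives the KO over WT ratio of CPM (log axis) for each gene with at least 30 UMIs in a class, by marker-gated class along the horizontal axis, with exact 95% counting intervals as bars, a line at 1 and dotted lines at 1.5-fold. Jund and Cited2 lie below 1 throughout, from 0.493 to 0.755 and from 0.519 to 0.847, while Jun runs from 0.885 to 1.17 and Ier2 from 0.771 in erythrocyte-like to 1.64 in neural crest-like cells. Egr1 lies at 3.39 in mesenchyme-like and 0.316 in erythrocyte-like cells.

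Graph clusters, made without these genes, were also taken one at a time, an alternative added after the data were seen. The libraries filled them unequally. Mesenchyme-like clusters held 92 and 22, 27 and 124, and 5 and 75 cells, the last too few to be used, and a neural ectoderm-like cluster 193 and 64. Clusters and cell cycle phases are parts of the same 2 libraries and not replicates, and no share of all genes stands beside their counts. Jund was lower in the library labelled KO in 16 of 16 clusters with at least 20 cells of each library, at ratios from 0.425 to 0.788. That repeats the property by which Jund was chosen, so nothing is read from it. Cited2 was lower in 15 of 16, from 0.337 to 1.57, the exception being a mesenchyme-like cluster with 92 and 22 cells and 41 and 11 Cited2 UMIs. Jun was lower in 7 of 14 and Ier2 in 7 of 16. The Jun ratio went both ways among mesenchyme-like clusters, at 1.22 [1.09, 1.37] in that of 254 and 295 cells and 0.776 [0.665, 0.907] in that of 120 and 253 cells, and was 1.45 [1.04, 2.02] in an unnamed cluster of 38 and 55 cells. In the former mesenchyme-like cluster Junb had 12 and 44 UMIs, a ratio of 4.02 [2.09, 8.37], and Egr1 5 and 36 UMIs, a ratio of 7.90 [3.09, 25.8]. By cell cycle phase, Jund had ratios of 0.643 [0.602, 0.686] in S and 0.659 [0.630, 0.690] in G2/M cells, and Cited2 0.591 [0.538, 0.650] and 0.646 [0.602, 0.693]. Only 42 and 52 cells were scored as G1.

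The same split appeared in the share of cells with a UMI once each cell was thinned to 10000 UMIs, which kept 1541 and 2210 cells. Jund was counted in 72.2% [69.9, 74.5] of WT-labelled and 59.8% [57.7, 61.8] of KO-labelled cells, and Cited2 in 38.3% [35.8, 40.8] and 29.0% [27.1, 30.9]. Of the 7 classes, the Cited2 share was not lower in KO-labelled neural crest-like cells (64.86% and 68.29%). Jun was counted in 33.6% [31.3, 36.0] and 34.5% [32.5, 36.5], and Ier2 in 43.5% [41.1, 46.1] and 48.7% [46.6, 50.8]. Unthinned, the shares were 87.7% and 75.7% for Jund, 58.3% and 45.6% for Cited2, 52.7% and 51.1% for Jun, and 67.0% and 68.3% for Ier2. The Jund difference was thus spread over many cells. Its mean was 1.55 and 0.991 UMIs per thinned cell, with a median of 1 in both, and the top 10% of cells held 30.9% and 33.7% of its UMIs. In erythrocyte-like cells, the class with the least Jund (median depths 34642 and 33479 UMIs), thinned shares were 28.9% and 28.8% for Jund and 7.89% and 7.69% for Jun, below the shares over all cells.

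The inducible genes were seen in few cells. The thinned share was 3.76% and 4.75% for Junb, 2.40% and 2.13% for Atf3, and 1.23% and 1.86% for Egr1. For Fos it was 0.195% [0.0402, 0.568] and 1.04% [0.661, 1.56], and for Fosb 0.130% [0.0157, 0.468] and 0.769% [0.449, 1.23]. Removing the mitochondrial limit also meant a new random draw in the thinning. The thinned shares of Fos were then 0.507% and 0.673%, and those of Fosb 0.190% and 0.852%. Those of Atf3 were in the other order, at 1.90% and 2.15%, and those of Egr1 were 1.585% and 1.57%. In these shifts the part of the limit cannot be told apart from that of the draw. Unthinned, Fos was seen in 1.07% and 1.96% of cells and Fosb in 0.357% and 1.62%. At least 1 of these 5 genes was counted in 7.07% of thinned WT-labelled cells and 9.41% of KO-labelled cells, and 3 or more together in 0 and 1 cell. At least 2 were counted in 0.649% and 1.09% of cells, and in endothelium-like cells in 10.9% of each library (7 of 64 and 11 of 101 cells). Endothelium-like cells had at least 1 of the 5 in 46.9% and 59.4%, and optic vesicle-like cells in 4.85% and 5.46%. Correlations between pairs of the 9 genes over thinned cells were weak, from -0.0936 to 0.141 over all cells and from -0.190 to 0.188 within a class, where sparse counts limit any value.

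**Figure D4:**
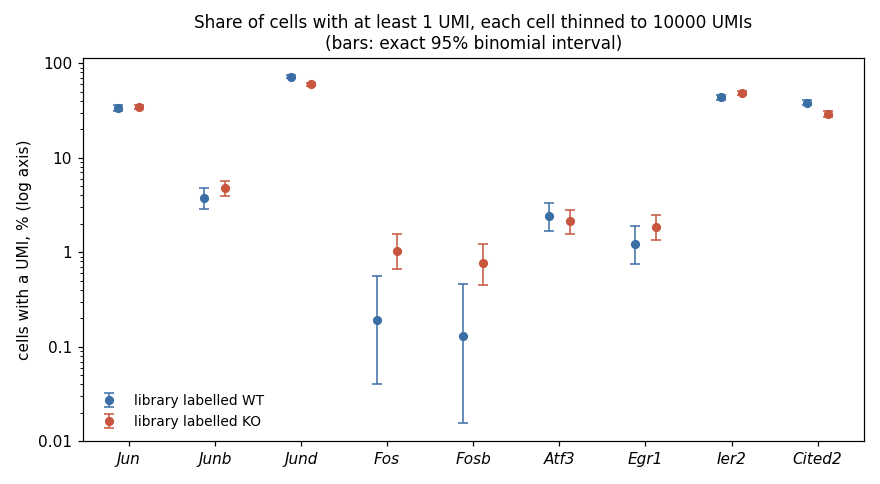
The vertical axis (log axis) gives the percentage of cells with at least 1 UMI of each gene, after thinning every cell to 10000 UMIs, with exact 95% binomial intervals as bars. Jund stands at 72.2% and 59.8% and Cited2 at 38.3% and 29.0%. Bars overlap for Jun, Junb, Atf3 and Egr1 and not for Ier2 (43.5% and 48.7%), and Fos and Fosb are at or near 1% or less in both libraries.

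Related genes outside the 9 were also listed. The 9 were chosen through Jund, so their contrast with these lists is only described. Of 18 other AP-1, ATF and CREB family genes, 16 had at least 30 UMIs and 0 were past the 1.5-fold limit, with a median ratio of 0.971 against 1.003 for all genes. The lowest named was Mafg, a small Maf protein, at 0.866 [0.800, 0.938], and the highest Maff, another small Maf protein, at 1.37 [1.04, 1.83] from 82 and 141 UMIs. Of 40 other immediate early and serum response genes, 35 were counted and 0 were past the limit, with a median of 0.992. Klf2, a flow-responsive factor of endothelium, came nearest at 0.683 [0.590, 0.791]. On the upper side Csrnp1 had 1.27 [1.01, 1.62] and Dusp6, a phosphatase that restrains ERK and is induced by it, 1.19 [1.07, 1.33]. The 17 measured kinases and factors upstream (Mapk, Map2k, Elk and Mkl genes, Rps6ka3 and Men1) had a median of 1.023, with 0 past the limit and a range from 0.859 for Mkl2 to 1.33 for Mapk10. Of all 13946 genes, 3.31% were at least 1.5-fold lower and 1.93% at least 1.5-fold higher. In lists this short, counts of 0 lie near those shares, and nothing is read from them.

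Heat shock and chaperone genes, of which only some are known to respond to dissociation, had a median ratio of 1.013 over 11 of 12 genes. Their ratios ran from 0.921 to 1.15. None was past the limit, beside 3.31% of all genes downwards and 1.93% upwards. Hspd1, a mitochondrial chaperonin, stood at 569.9 against 525.2 CPM (0.921 [0.906, 0.938]) and Hsp90ab1, a cytosolic chaperone, at 3883 against 4112 CPM (1.06 [1.05, 1.07]). Median mitochondrial shares of UMIs were 2.56% and 2.60% in the kept cells, which the filter had already limited to 5%. The part of handling in the Jund and Cited2 difference was not tested. The family and partners of Cited2 were more varied. Of 11 genes 2 were at least 1.5-fold lower, as were 3.31% of all genes, namely Tfap2a at 0.603 [0.490, 0.741] and Cited1, a paralog of Cited2, at 0.663 [0.587, 0.749]. Tfap2b, like Tfap2a an AP-2 factor that Cited2 assists, lay just inside the limit at 0.667 [0.597, 0.745] and is itself a surface ectoderm marker of the gate. Cited4, another paralog, was on the other side at 1.33 [1.23, 1.44], and Crebbp, the CBP gene, was level at 1.03 [0.977, 1.09]. Tfap2a, Cited1 and Tfap2b reached 30 UMIs in 3 classes each, Cited4 in 2 and Crebbp in 7. The ectoderm-like class made up 4.23% of WT-labelled and 2.33% of KO-labelled cells, and the part of class shares in these ratios was not tested.

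**Figure D5:**
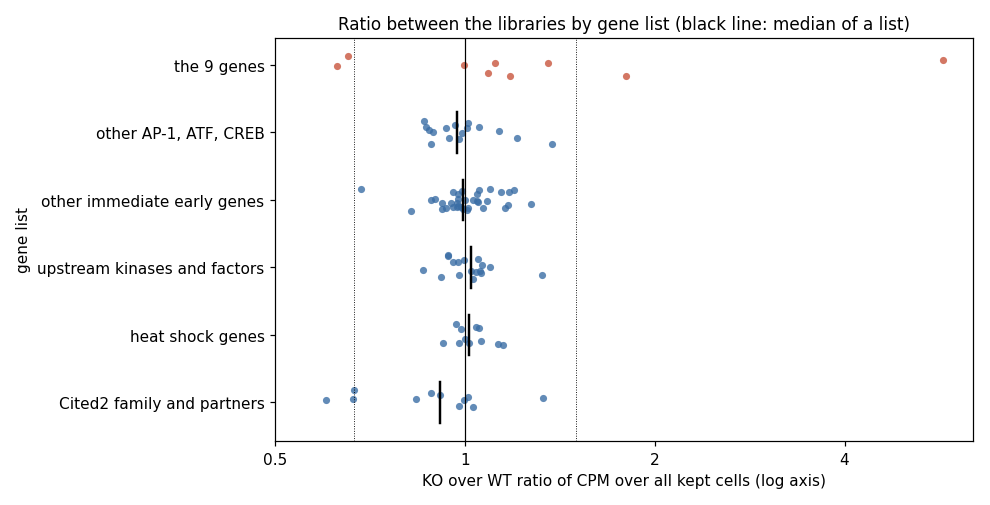
The horizontal axis gives the KO over WT ratio of CPM over all kept cells (log axis) for the genes of each list with at least 30 UMIs, 1 point per gene, with a black line at the median of a list and dotted lines at 1.5-fold. The 9 genes (red), chosen through Jund, run from 0.627 to 5.72, the latter for Fosb with 6 and 43 UMIs. Medians are 1.013 for the heat shock genes and 0.992 for the other immediate early genes.

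Likeness to Jund over the 14 values of 7 classes in 2 libraries was highest for Ptms, with a Pearson r of log2(CPM + 1) of 0.965, followed by Arl5a (0.962), Rtn4 (0.951), Msantd4 (0.948) and 9930021J03Rik (0.947). In that order their KO over WT ratios over all cells were 0.568, 0.870, 0.663, 0.876 and 0.839. Of the 9 genes Jun came nearest to Jund at 0.636, then Ier2 at 0.592. Below them came Atf3 (0.296), Fosb (-0.0485), Cited2 (-0.1545), Junb (-0.432), Egr1 (-0.662) and Fos (-0.805). Fos was most like Creg1 (0.920), Serinc3 (0.913), Abcg2 (0.893), Josd2 (0.889) and Rgs10 (0.887), a ranking that rests on few Fos UMIs. These values share libraries and class depths and are descriptions. Base composition was also set beside the ratios. Over 7370 genes the ratio was weakly higher for transcripts of higher GC content (Pearson r = 0.162, Spearman rho = 0.229 across genes, which are not independent). The Jund transcript has 67.2% GC and that of Cited2 54.5%, against 55.5% for Jun and 60.9% for Ier2, and a median of 49.1% over genes.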

How the data were processed

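Single cells of the ocular areas of 1 wild-type and 1 Mab21l1-null embryo were counted with 10x Chromium 3′ chemistry. The authors obtained UMI counts with Cell Ranger and GRCm38 (mm10), as the submitters' processing notes name them, and deposited 1 matrix of raw counts per library (43636657 UMIs in 1745 barcodes labelled WT, 53148253 in 2458 labelled KO). A barcode was retained when it showed between 1500 and 8000 genes and a mitochondrial share of no more than 5%, leaving 1680 and 2404 cells, the numbers the study analysed. Their depths ran from 6384 to 96705 UMIs.

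Each cell was gated on fixed markers by its mean z score of log1p(UMIs per 10000). It joined its top class where that mean was at least 0.5 and led the next class by at least 0.5, a rule set after the data were seen. Doublets were kept. UMIs were summed per class and library, scaled to CPM and compared as ratios, without a test. A gene was counted with at least 30 UMIs in both libraries together. The interval code was tested on simulated mesenchyme-like counts of 10940 genes, where 95.6% of intervals covered the true ratio. That checks the code and not the coverage in the real counts, in which many UMIs of a gene can lie in the same cell. Alternatives were another scaling, fold limit and UMI minimum, other cell filters, removal of high doublet scores, equal weights per cell, thinning, G1 cells, graph clusters and a doubled gate margin. Of the 27998 gene IDs, 27645 matched GENCODE M21.

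The members and lists were chosen with earlier results of these data known. All 9 genes are named. From each list at most 4 genes on each side, with at least 100 UMIs and the ratio farthest from 1, could be named, and for likeness the 5 genes nearest to Jund and to Fos with at least 1000 UMIs. Tools were Python 3.11.15, scipy 1.17.1, scanpy 1.11.5 and Seurat 5.3.0 (its cell cycle gene lists).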

Additional observations from a re-analysis of the deposited data

Results flagged for a closer look

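Egr1 differed between the libraries in opposite directions in 2 classes. Its KO over WT ratio of CPM was 0.316 in erythrocyte-like cells, from 34 UMIs in 11 of 38 cells against 15 UMIs in 10 of 53 cells, and 3.39 in mesenchyme-like cells, from 7 UMIs in 6 of 433 cells against 28 UMIs in 11 of 617 cells. With 1 library per genotype the difference between the classes was not tested. Without the highest cell of each library and class the counts were 24 and 12 UMIs in erythrocyte-like cells and 5 and 19 UMIs in mesenchyme-like cells.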

How the results depend on the processing

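No paired analysis was possible because each genotype has 1 library. Neither Jund nor Cited2 went above 1 under any alternative in any of the 7 classes or over all cells, with ratios over all cells from 0.498 to 0.652 for Jund and from 0.613 to 0.662 for Cited2. With a fold limit of 2, 0 genes were lower and 1 higher over all cells, and 1, 0, 0, 0, 1 and 0 were lower in ectoderm-, optic vesicle-, mesenchyme-, endothelium-, erythrocyte- and neural crest-like cells, with 0 higher in the last. With at least 100 UMIs, 0 were higher over all cells, in mesenchyme-like and in neural crest-like cells, and 1 was lower in endothelium- and 1 in erythrocyte-like cells. With no limit on detected genes 1 was lower in endothelium-like cells. Without the 5% of cells with the highest Scrublet scores in each library, used because automatic calls were too few, 0 were lower and 1 higher in that class. With each cell weighing the same, the Jund ratio over all cells was 0.622, and 1 gene was lower in neural ectoderm-like and 3 in erythrocyte-like cells. Thinned to 10000 UMIs, ratios over all cells were 4.18 for Fos, 1.65 for Egr1 and, on the other side of 1, 0.899 for Atf3, which also crossed to 0.983 in mesenchyme-like cells. After thinning the Cited2 ratio was 0.713 in erythrocyte-like cells. Over all cells 1 gene was then counted as higher, namely Egr1 with 22 and 52 UMIs. Fos (4 and 24 UMIs) and Fosb (2 and 18 UMIs) no longer reached 30 UMIs and were left out of that count. By class, 1 gene was lower in neural ectoderm-like cells and 1 higher in mesenchyme-like cells. None was lower in endothelium- and erythrocyte-like cells or higher in neural crest-like cells. In the 42 and 52 G1 cells, too few for values by class, ratios were 0.768 for Jun, 0.498 for Jund, 0.925 for Ier2 (the other side of 1) and 0.662 for Cited2, and 0 genes were higher. With graph clusters, 1 gene was lower in the neural ectoderm-like class, Cited2 at 0.522. With a doubled gate margin the Jund ratio in mesenchyme-like cells was 0.527, and 0 genes were higher there and in neural crest-like cells. No share of all genes stands beside the counts at these settings, so nothing is read from them. The causes of these shifts were not tested. Fos, Fosb, Egr1 and Atf3 are limited by depth in every class with under 30 UMIs.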
